A study of Mus musculus with 2 samples.

Results

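The 10 genes described here encode intermediate filament proteins and surface proteins that mark dedifferentiated or stem-like tubule cells, and they were chosen by gene symbol. The filament genes are the keratins Krt7, Krt8, Krt18, Krt19 and Krt20, vimentin (Vim) and nestin (Nes), and the surface markers are Cd44, Cd24a and Prom1. Of these 10 genes, 9 had a row in the table of 20002 genes. Krt20 had no row, so it has no expression value here.

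Bulk RNA-seq of whole mouse kidney was available as 1 control library and 1 Reg-2 CKO library, and the comparison asks how kidney transcripts differ when Regnase-2, an RNA-degrading protein encoded by Zc3h12b, is lowered. Reg-2 CKO mice had received a tail-vein injection of adeno-associated virus serotype 9 (AAV9) carrying short hairpin RNA (shRNA) against Regnase-2 at 11 weeks of age, so that CKO here names a viral knockdown; the labels place it in proximal tubules, and no Cre driver is described. Control mice are described as given control shRNA in the study's RNA sequencing methods, whereas its injection methods name empty AAV9 as the control vector. The age at collection is given as 14 weeks for the sequenced kidneys and as 16 weeks in the description of the injections. The mice were C57BL/6J on standard chow with no other treatment, the RNA came from the left kidney, and the sex of the mice and the number pooled in each library are not stated. After a constant was subtracted from each column, the control library held 38851231 reads and the CKO library 43588721 reads. Differences between the libraries have no replicate check.

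The targeted transcript was not lower beyond counting error in the library labelled CKO, so its reads did not bear out that label. These reads are whole-kidney RNA, whereas the study reported lower Regnase-2 protein in proximal tubules by immunofluorescence. Transcript loss within proximal tubules alone was not measured here. Zc3h12b had 47 control reads and 59 CKO reads, a ratio of 0.837 after scaling with a 95% Clopper-Pearson interval from 0.561 to 1.26. In the main scaling the interval holds a ratio of 1 but none under 0.561, so a larger loss in whole kidney lay outside it. The log2 ratio of -0.25 became 0.16 when library totals were made equal. With the values as deposited it was 0.42, where the median of all genes was 0.57. This interval and those that follow cover counting error of reads only, and no difference between animals or libraries. Reads from PCR without molecular identifiers are not independent molecules, so the intervals may be too narrow even for counting error.

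Keratins of simple epithelia form filaments from a type I and a type II chain, so that Krt18 or Krt19 (type I) polymerises with Krt8 or Krt7 (type II). In the healthy kidney these keratins are found mainly in collecting duct, distal segments and urothelium, whereas vimentin is the filament of stromal, endothelial and blood cells, and injured proximal tubule cells are known to gain both vimentin and keratins. CD44 is the hyaluronan receptor, CD24 a small glycosylated surface protein, and prominin-1 (the Prom1 product, CD133) a protein of membrane protrusions, and the last pair mark scattered tubule cells that have been described as progenitor-like.

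All 9 measured genes were higher in the CKO library. A gene was counted as higher when its reads, scaled by the median gene ratio and with 1 read added, were at least 2-fold those of the control. This held for 7 of 9 genes, namely Krt19, Cd44, Krt18, Vim, Cd24a, Prom1 and Nes, beside 13.4% of the 17469 genes tested, which are those reaching 10 scaled reads in either library. None of the 9 was at least 2-fold lower, beside 5.35% of all genes tested. The median log2 ratio of the 9 was 1.26, and that of all genes tested was 0.02. All 9 passed the filter on low reads in both libraries. In whole tissue, a difference in the number of cells of a type and in the RNA per cell cannot be told apart.

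**Figure D1:**
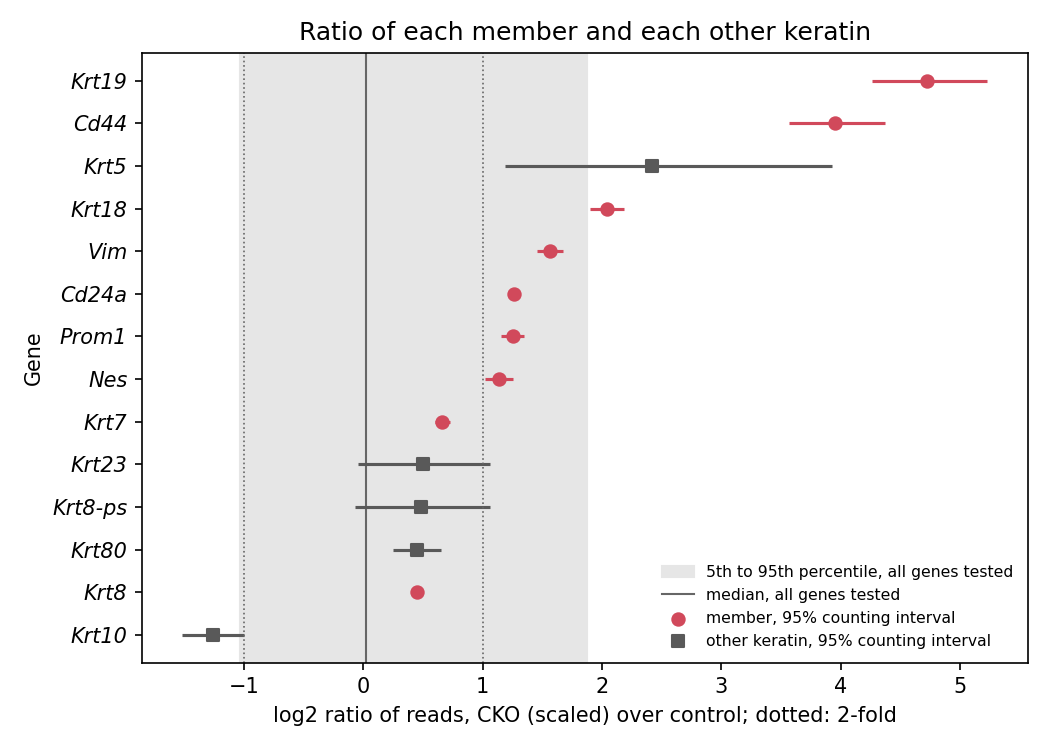
Each point is the log2 ratio of scaled CKO reads over control reads for 1 gene, with its 95% counting interval as a line; red circles are the 9 measured filament and marker genes and grey squares the other keratins with enough reads. The band spans the 5th to 95th percentile of all genes tested, from -1.04 to 1.87, and Krt19, Cd44, Krt18 and Krt5 have their points above it.

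Krt19, the smallest keratin and a type I chain of ductal epithelia, had 38 control reads and 1506 CKO reads. Its ratio was 26.4 (95% interval 19.2 to 37.5), which placed it at rank 15 of 17469 genes by log2 ratio. Krt18, the usual type I partner of Krt8, had 451 and 2782 reads, a ratio of 4.11 (3.72 to 4.55) at rank 713. Krt19 had the fewer reads of the pair in both libraries, and its ratio rests on the subtracted constant: relative to the median gene its log2 ratio was 4.67 after subtraction and 3.85 with the values as deposited, against 2.02 and 1.98 for Krt18.

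The type II keratins Krt8 and Krt7 had more reads and smaller ratios than Krt18 and Krt19. Krt8 had 5502 control reads and 11259 CKO reads, a ratio of 1.36 (1.32 to 1.41) at rank 4520. Krt7, a type II chain of duct and urothelial cells, had 2841 and 6747 reads, a ratio of 1.58 (1.52 to 1.65) at rank 3447. Neither reached 2-fold in the main scaling. Equal library totals moved the median log2 ratio of all genes to 0.44, and under them Krt7 passed 2-fold with a log2 ratio of 1.08 while Krt8 stood at 0.87; relative to that median they were 0.64 and 0.42, beside 0.64 and 0.43 in the main scaling.

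Because both keratins of a pair come from the same library, the change in their read ratio needs no scaling and no gene length, although it still depends on the subtracted constants. The ratio of Krt18 to Krt8 reads was 3.01 times as high in the CKO library (exact 95% interval 2.71 to 3.35). For Krt19 against Krt8 the factor was 19.4 (14.02 to 27.5), and for Krt19 against Krt18 it was 6.42 (4.58 to 9.25). With the values as deposited these 3 factors were 2.86, 10.6 and 3.70, so those with Krt19 were the ones that moved by over 1.5 times. The type II pair shifted little against each other, since the ratio of Krt7 to Krt8 reads changed by a factor of 1.16 (1.10 to 1.23).

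Levels per length were compared as reads per kb of the longest annotated transcript. Summed over Krt18 and Krt19, type I keratin was 0.0965 of type II keratin (Krt7 and Krt8) per kb in the control library (95% interval by error propagation 0.0880 to 0.106). In the CKO library it was 0.391 of type II (0.378 to 0.404). The type I to type II ratio was thus 4.05 times as high (3.68 to 4.47), while type II keratin still exceeded type I 2.56-fold. With the values as deposited, the factor was 3.66.

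**Figure D2:**
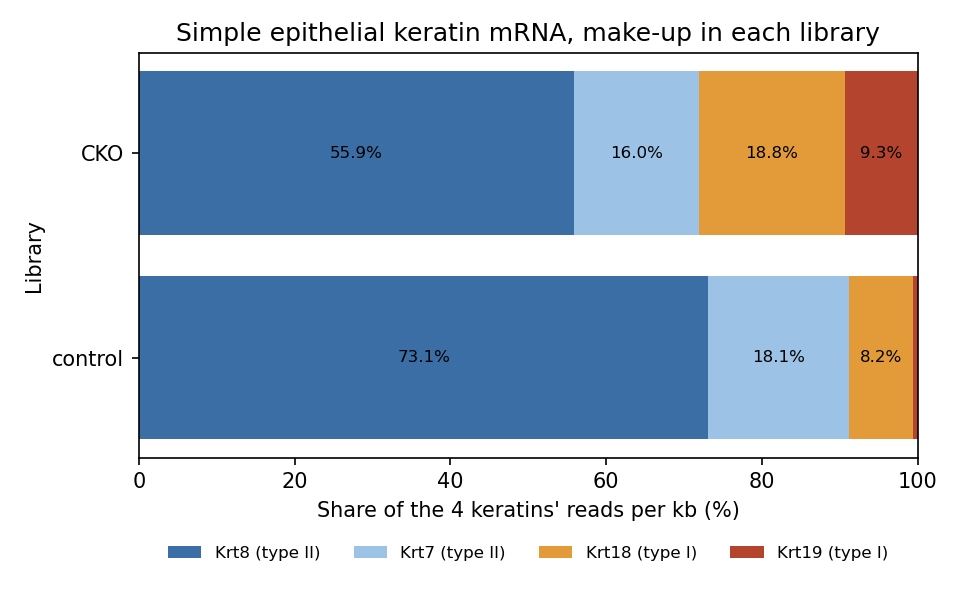
Stacked bars give the share of each of 4 keratins in their summed reads per kb in the control and the CKO library; blue parts are type II and orange and red parts type I. Krt8 takes 73.1% of the control bar and 55.9% of the CKO bar, while Krt19 grows from 0.628% to 9.29%, or from 1.17% to 9.50% with the values as deposited.

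The summed level of the 4 keratins was 3842 reads per kb in the control and 6860 scaled reads per kb in the CKO library. Krt8 made up 73.1% of this sum in the control (72.2 to 74.0) and 55.9% in the CKO library (55.2 to 56.6). Krt18 made up 8.17% (7.48 to 8.91) and 18.8% (18.2 to 19.4). Krt19 went from 0.628% (0.457 to 0.861) to 9.29% (8.85 to 9.74); with the values as deposited its shares were 1.17% and 9.50%, so the control share depends on the subtracted constant beyond counting error. The share of Krt7 was the one that differed least, at 18.1% (17.4 to 18.7) and 16.02% (15.6 to 16.4). Of the gain in summed reads per kb in the main scaling, 33.9% was Krt8, 32.4% Krt18, 20.3% Krt19 and 13.4% Krt7. In that scaling the keratin with the smallest ratio, Krt8, added about as much as Krt18. This near equality depends on the factor applied to the CKO reads. Under equal library totals or with the values as deposited, the part of Krt8 lay further above that of Krt18.

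Other keratins had fewer reads than Krt8, Krt7 and Krt18. Of those with at least 10 scaled reads in 1 library, Krt80 (type II) had 300 and 615 reads, a log2 ratio of 0.45. Krt10, a type I keratin of stratified epithelium, was the 1 keratin at least 2-fold lower, with 327 and 205 reads and a log2 ratio of -1.25, which was -0.84 with equal totals. Krt23 (type I) had 42 and 89 reads, and its interval from 0.968 to 2.09 held a ratio of 1. Krt5, a type II keratin of basal cells, had 6 and 48 reads, a ratio of 5.33 (2.28 to 15.3), but it reached 10 reads in the CKO library only, and its log2 ratio of 2.24 was 1.27 with the values as deposited, where the median of all genes was 0.57. The pseudogene Krt8-ps had 41 and 86 reads; how reads that match both it and Krt8 were counted is not stated, and its reads are few beside those of Krt8. Other copies of these genes were not searched for.

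Vimentin had 864 control reads and 3828 CKO reads, a ratio of 2.95 (2.74 to 3.18) at rank 1239. Nestin, a large filament protein that assembles with vimentin and is found in podocytes and in progenitor cells, had 747 and 2465 reads, a ratio of 2.20 (2.03 to 2.39) at rank 2020. The lower bound for nestin lay just above 2-fold. Set against Krt8, vimentin reads were 2.17 times as high in the CKO library (1.997 to 2.35), and set against Krt18 they were 0.718 times as high (0.633 to 0.814). Vimentin thus differed more than Krt8 and less than Krt18.

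Among the surface markers, Cd44 stood apart. It had 56 control reads and 1303 CKO reads, a ratio of 15.5 (11.9 to 20.6) at rank 46. Relative to the median gene its log2 ratio was 3.91 after subtraction of the constants and 3.33 with the values as deposited, below its counting interval. Cd24a had 4345 and 15659 reads, a ratio of 2.40 (2.32 to 2.49) at rank 1732. Prom1 had 1175 and 4193 reads, a ratio of 2.38 (2.23 to 2.54) at rank 1753. The pair of progenitor markers therefore had nearly equal ratios, whereas Cd44 was the gene of lowest level per kb in both libraries.

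Neighbours in the order of ratios were compared directly. Krt19 exceeded Cd44 by a factor of 1.70 (1.10 to 2.66), and Cd44 exceeded Krt18 by 3.77 (2.83 to 5.11), or by 2.57 with the values as deposited. Krt18 exceeded Vim by 1.39 (1.23 to 1.58), and Vim exceeded Cd24a by 1.23 (1.13 to 1.33). Cd24a and Prom1 did not differ beyond counting error, at a factor of 1.01 (0.938 to 1.09), nor did Prom1 and Nes, at 1.08 (0.973 to 1.20). Below them, Nes exceeded Krt7 by 1.39 (1.27 to 1.53).

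Reads per kb set the genes in an order of level. In the control library Krt8 stood first with 2810 reads per kb and Cd24a second with 2393. They were followed by Krt7 at 694, Krt18 at 314, Vim at 295, Prom1 at 287, Nes at 122, Krt19 at 24.1 and Cd44 at 9.98 reads per kb. Krt18 and Vim did not differ beyond counting error, with a level ratio of 1.06 (0.946 to 1.19), nor did Vim and Prom1, at 1.03 (0.940 to 1.12). The order depends on transcript length: the longest Vim transcript, of 2926 bases, retains an intron, and with the longest protein-coding one, of 2193 bases, Vim had 394 reads per kb and stood above Krt18.

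In the CKO library Cd24a stood first with 5749 scaled reads per kb, above Krt8 at 3833 (interval of their ratio 1.46 to 1.54). Krt18 at 1291 came next and exceeded Krt7 at 1099 scaled reads per kb by a factor of 1.17 (1.12 to 1.23). Krt19 reached 637 scaled reads per kb, close under Prom1 at 684, and had passed Nes at 268. The levels lay closer together than in the control: the highest was 282 times the lowest in the control library and 37.2 times in the CKO library. The control span rests on the 56 reads of Cd44, and with the values as deposited the spans were 176 and 35.9.

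**Figure D3:**
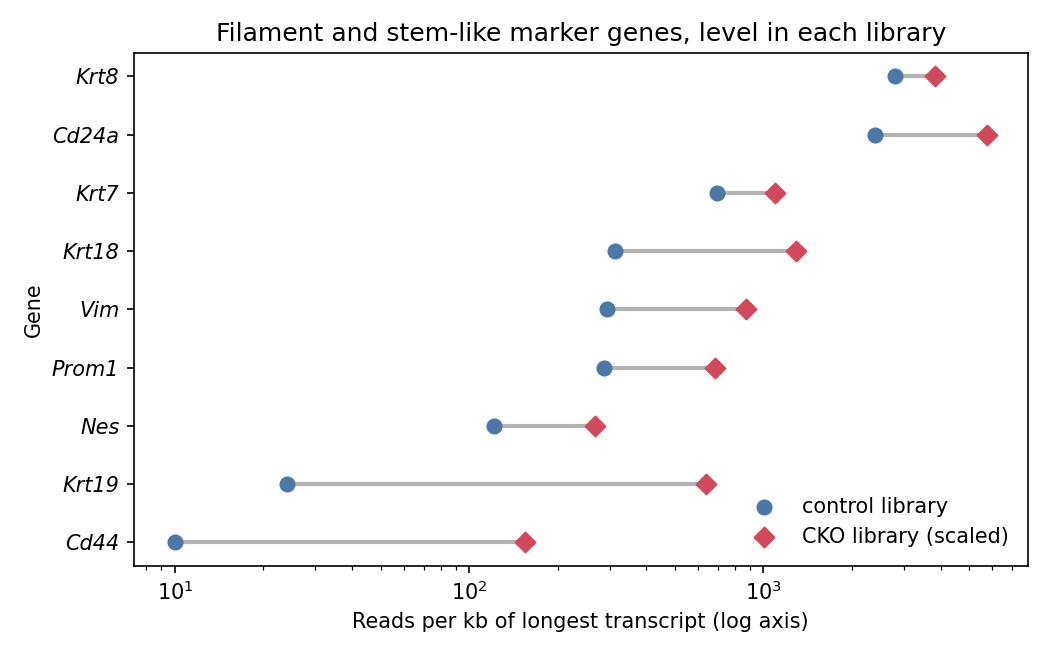
For each of the 9 genes, the blue circle is the level in the control library and the red diamond the scaled level in the CKO library, in reads per kb of the longest transcript on a log axis. Cd44 and Krt19, the genes of lowest level in the control at 9.98 and 24.1 reads per kb, have the longest lines.

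Promoter windows from RefSeq (GRCm38.p6), from 250 bases before to 50 bases after a start site, were available for Krt7, Krt8, Krt18, Krt20, Vim, Nes, Cd44 and Prom1, that is for 8 of 10 genes with 9 windows. 4 are printed on the strand of the gene. Krt8 and Krt18 are shown because these partner genes are neighbours on chromosome 15 and differed 3.01-fold in their change, and Vim and Cd44 as the non-keratin filament and the surface marker with the largest ratios of their kind. The windows are chr15:102004293-102004592 (minus strand) for Krt8, chr15:102027966-102028265 (plus) for Krt18, chr2:13574061-13574360 (plus) for Vim and chr2:102901616-102901915 (minus) for Cd44. Capitals mark matches on either strand to a TATA box (TATAAA), a GC box (GGGCGG), AP-1 (TGANTCA), TEAD (CATTCC), STAT (TTCNNNGAA) or the NF-kB consensus.
Krt8: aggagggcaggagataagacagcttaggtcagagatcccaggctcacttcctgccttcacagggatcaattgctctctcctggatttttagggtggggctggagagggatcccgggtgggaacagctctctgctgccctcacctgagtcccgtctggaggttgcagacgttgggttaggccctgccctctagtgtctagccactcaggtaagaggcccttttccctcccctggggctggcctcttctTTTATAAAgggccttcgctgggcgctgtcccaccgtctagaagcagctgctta
Krt18: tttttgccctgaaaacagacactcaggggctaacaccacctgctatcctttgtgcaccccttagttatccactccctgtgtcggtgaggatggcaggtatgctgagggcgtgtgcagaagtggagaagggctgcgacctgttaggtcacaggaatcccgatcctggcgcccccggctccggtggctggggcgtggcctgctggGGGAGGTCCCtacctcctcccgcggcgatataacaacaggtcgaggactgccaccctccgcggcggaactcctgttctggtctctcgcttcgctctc
Vim: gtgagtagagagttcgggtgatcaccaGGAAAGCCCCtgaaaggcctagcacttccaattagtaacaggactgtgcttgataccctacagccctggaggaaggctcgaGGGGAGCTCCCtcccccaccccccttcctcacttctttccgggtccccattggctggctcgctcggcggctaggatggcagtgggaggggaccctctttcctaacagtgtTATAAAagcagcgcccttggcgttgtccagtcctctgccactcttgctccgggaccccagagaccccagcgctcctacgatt
Cd44: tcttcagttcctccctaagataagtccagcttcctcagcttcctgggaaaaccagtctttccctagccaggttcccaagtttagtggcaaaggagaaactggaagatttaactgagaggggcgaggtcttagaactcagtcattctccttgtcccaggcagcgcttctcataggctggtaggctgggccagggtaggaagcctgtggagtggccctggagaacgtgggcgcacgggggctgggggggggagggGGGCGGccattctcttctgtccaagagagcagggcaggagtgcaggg

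The 4 windows shared no motif across all of them. Krt8 held 2 overlapping TATA matches on opposite strands at its start site, and Vim held 1 TATA match beginning at base -32; 13.6% of 32851 windows held that motif. The NF-kB consensus matched 1 time in Krt18 and 3 times in Vim, where 2 matches overlap, and 8.46% of all windows held it. Cd44 held 1 GC box, as did 35.7% of all windows.

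In the windows not printed, Krt7 held 4 GC boxes, Nes 2, and Krt20 1 TATA match. Prom1 had an AP-1 match in both of its windows, 1 of which also held a GC box, and 7.81% of all windows held an AP-1 match. TEAD was matched 3 times in Krt20 and in no other of the 9 windows, against 14.7% of all windows. No STAT match was found in the 9 windows, against 8.30% of all windows. A match describes letters and shows no binding.

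Reads of overlapping genes may be mixed, since the libraries came from a stranded kit (TruSeq Stranded mRNA) but the strand setting of the counting is not stated. In the GENCODE M21 annotation, Gm671 overlaps Krt7 on the opposite strand and had 57 and 87 reads, few beside Krt7. Opposite-strand genes without a row overlap Cd44 (Gm23731), Krt8 (Gm36026) and Prom1 (Gm16401), and Gm42716 overlaps Prom1 on the same strand.

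Further intermediate filament genes varied widely. Of 12 tested, 5 were at least 2-fold higher and none at least 2-fold lower, beside 13.4% and 5.35% of all genes tested. Their median log2 ratio was 0.61. Gfap, Nefm and Bfsp1 reached 10 reads in the CKO library only and so had to be higher; of the 9 that reached it in the control, 2 were at least 2-fold higher, at a median of 0.43. Lmna, the nuclear A-type lamin and the list's most abundant gene, had 2019 and 3908 reads, a log2 ratio of 0.37. Lmnb1, a B-type lamin, had 135 and 474 reads, a log2 ratio of 1.22. The remaining genes past 2-fold had few control reads, namely Synm (35), Gfap (3), Nefm (3) and Bfsp1 (2). Bfsp1, a filament of the eye lens, had the highest ratio with 32 CKO reads, 10.7 (2.72 to 91.9), and Bfsp2 the lowest with 21 and 16 reads at a log2 ratio of -0.92. Both depend on the subtracted constant, with log2 ratios of 1.17 and 0.26 for the values as deposited, where Gfap fell under 2-fold at 0.82. Prph, Ina and Nefl had no row and were not analysed here.

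Genes that tie filaments to junctions were divided. Of 17 tested, 6 were at least 2-fold higher and none at least 2-fold lower, beside 13.4% and 5.35% of all genes tested. Their median log2 ratio was 0.29. Periplakin (Ppl), which links filaments to desmosomes, had the highest ratio, with 236 and 1601 reads at log2 2.17. Integrin beta 4 (Itgb4), which binds keratin at hemidesmosomes through plectin, had 134 and 804 reads at log2 1.99. The others past 2-fold were the desmosomal cadherins Dsg2 (1.71) and Dsc2 (1.67), epiplakin (Eppk1, 1.48) and desmoplakin (Dsp, 1.08). Pkp4, the gene with most control reads, had 13471 and 14557 reads at log2 -0.47, and Perp was lowest at -0.61, with 2512 and 2467 reads. The summed level of the list was 7919 reads per kb in the control and 7544 scaled reads per kb in the CKO library, and the genes with large ratios were the scarce ones. With the factor of 0.891 for equal totals, 8 of the 17 were at least 2-fold higher, beside 3870 of 17682 genes. Under that factor the CKO sum of the list exceeded that of the control. Pkp1 had no row and was not analysed here.

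Among ligands, partners and sheddases of CD44, Spp1 dominated. Spp1, the secreted ligand osteopontin, had 15360 control reads and 412220 CKO reads, a ratio of 17.9 (17.6 to 18.2). After subtraction of the constants its ratio lay close to that of its receptor gene Cd44, at log2 4.16 against 3.93. This closeness rests on the constants. Relative to the median gene, Spp1 and Cd44 were at 4.14 and 3.91 after subtraction, and at 4.18 and 3.33 with the values as deposited. The median log2 ratio of the 16 tested was 0.31. With equal totals, beside 3870 of 17682 genes, 7 of the 16 were at least 2-fold higher. In the main scaling 5 were at least 2-fold higher and none at least 2-fold lower, beside 13.4% and 5.35% of all genes tested. Besides Spp1 these were the hyaluronan receptor Hmmr (16 and 217 reads), the hyaluronan-degrading Cemip (10 and 109 reads), the membrane protease Mmp14 (351 and 1970 reads) and the hyaluronan synthase Has2. Has2 had 3 and 19 reads, a ratio of 4.22 (1.24 to 22.3), and like Mmp9 it reached 10 reads in the CKO library only; of the 14 that reached it in the control, 4 were at least 2-fold higher, at a median of 0.26. The synthase Has3 was lowest at log2 -0.69, with 35 and 32 reads. As deposited, Has2 was at log2 0.88 and no longer past 2-fold, and relative to the median gene Hmmr went from 3.08 to 1.83 and Cemip from 2.72 to 1.26. The sheddases Adam10 and Adam17 had log2 ratios of 0.26 and 0.37. Has1, Tnfaip6 and Lyve1 had no row and were not analysed here.

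Of 22 progenitor and regeneration genes tested, 11 passed 2-fold upward and 1 downward, beside 13.4% and 5.35% of all genes tested. Their median log2 ratio was 1.04. With equal totals 15 passed 2-fold upward at a median of 1.46, beside 3870 of 17682 genes and an all-gene median of 0.44. Aldh1a2, a retinoic acid synthesising enzyme, was highest with 43 and 862 reads at log2 3.71. Sox9, a transcription factor of regenerating tubule cells, had 18 and 235 reads at log2 3.05. Both ratios rest on few control reads and move with the subtracted constant: relative to the median gene, Aldh1a2 was at 3.69 and, with the values as deposited, at 2.98, and Sox9 at 3.03 and 1.87. Anxa3, which marks scattered tubular cells, had 301 and 2612 reads at log2 2.53. The surface glycoprotein Nt5e (CD73), with most control reads, was the gene at least 2-fold lower, with 6667 and 3972 reads at log2 -1.33, and with equal totals no gene of the list was. The nephron lineage factors Pax2, Pax8 and Lhx1 lay at -0.14, 0.31 and -0.24, far from the ratios of Sox9 and Aldh1a2. Six2 and Lgr5 had no row and were not analysed here.

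Genes listed beside prominin-1 for membrane protrusions, among them brush border and ciliary genes, did not share the ratio of Prom1. Whether their products bind prominin-1 was not examined. None of 11 tested was at least 2-fold higher or lower, beside 13.4% and 5.35% of all genes tested. Of all genes, 3870 of 17682 passed 2-fold upward with equal totals and 3574 of 20002 as deposited. In this list Tspan1 and Arl13b did with equal totals, both at log2 1.04, and 3 genes did as deposited. The median log2 ratio was -0.47 in the main scaling, -0.05 under equal totals and 0.12 for the values as deposited. Pdzk1, a scaffold of the proximal brush border and the gene with most control reads, was lowest with 50357 and 45327 reads at log2 -0.74. Arl13b, a ciliary GTPase, was highest with 261 and 602 reads at log2 0.62. Prom2, the closest relative of Prom1, had 315 and 378 reads at log2 -0.32, which was 0.10 with equal totals.

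**Figure D4:**
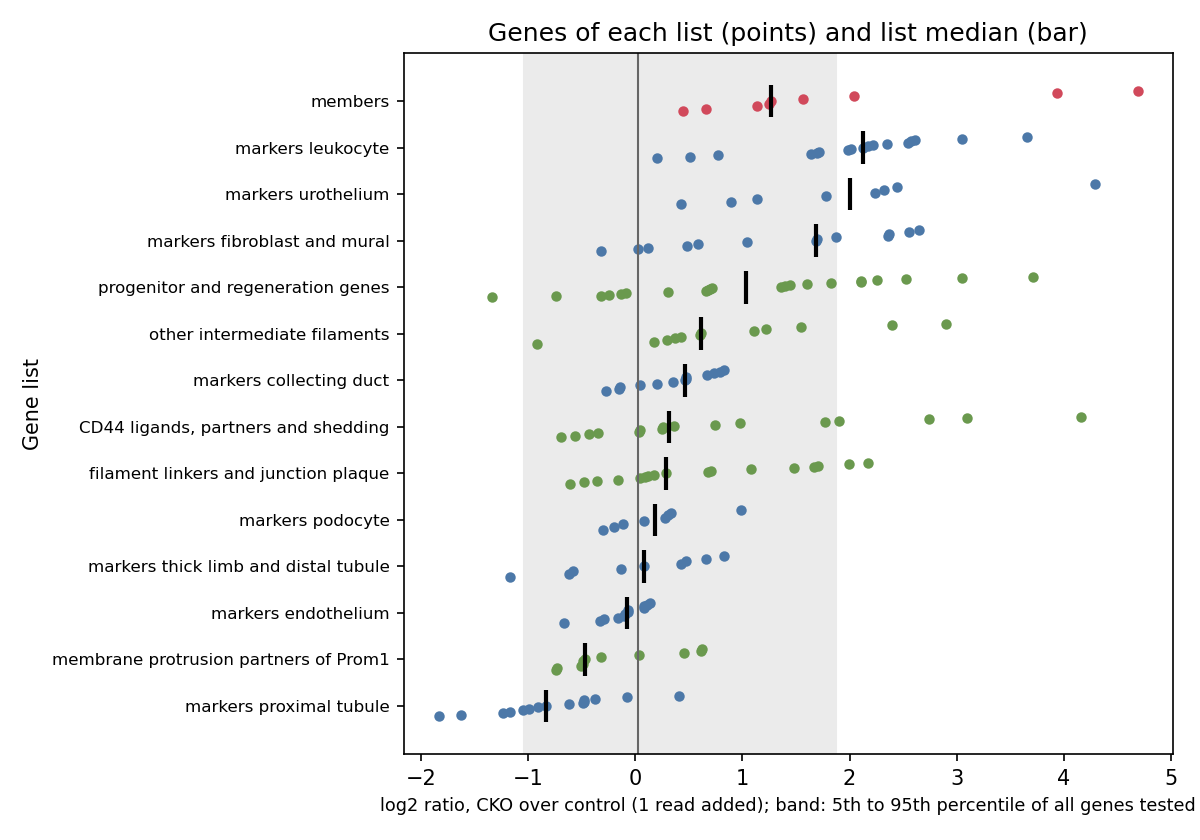
Each point is the log2 ratio (1 read added) of 1 tested gene and each black bar a list median; red marks the 9 filament and marker genes, green the gene lists and blue the cell type markers. The band is the 5th to 95th percentile of all genes tested; medians run from -0.83 for proximal tubule markers to 2.13 for leukocyte markers, and that of the 9 genes is 1.26.

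Several of the 9 genes are also expressed outside the tubule, Vim and Cd44 by leukocytes and fibroblasts and the keratins by urothelium and collecting duct, so marker lists of these cells are given beside them. Leukocyte markers were higher for 17 of 17 tested, beside 8999 of 17469 genes tested. At least 2-fold higher were 14 of the 17, beside 13.4% of all genes tested, and their median log2 ratio was 2.13. Of the 14 leukocyte markers that reached 10 reads in the control, 12 were at least 2-fold higher, at a median of 2.19. Their summed level went from 3129 to 18819 scaled reads per kb, and Cd74, the most abundant in both libraries, from 1851 to 11327. The highest ratio was that of Lyz2, with 518 and 9836 reads at log2 3.66, and the lowest that of the B cell gene Cd79b, with 23 and 40 reads at log2 0.21; Cd79a and Ms4a1 had no row and were not analysed here. The part of leukocytes in the results for Vim, Cd44 and the other measured genes, Cd24a among them, was not tested.

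Fibroblast and mural markers were higher for 12 of 13, beside 8999 of 17469 genes tested. At least 2-fold higher were 8 of the 13, beside 13.4% of all genes tested, and their median log2 ratio was 1.69. Their summed level went from 3780 to 8126 scaled reads per kb; Ren1 was the most abundant in the control at 1499 and Tagln in the CKO library at 1290. Col1a1 was highest with 288 and 2711 reads at log2 2.65, and Ren1 lowest with 2387 and 2879 reads at log2 -0.31. None of 12 endothelial markers reached 2-fold in either direction, beside 13.4% higher and 5.35% lower of all genes tested. Their median log2 ratio was -0.08, which was 0.34 with equal totals, where that of all genes was 0.44. Their summed level was 6619 and 6202 scaled reads per kb, with Plvap most abundant at 1940 and 1815, and their log2 ratios ran from -0.67 (Kdr, 2528 and 2390 reads) to 0.14 (Emcn, 1621 and 2683 reads). The part of these cells in the results for Vim and Nes was not tested.

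Urothelial markers were scarce and higher for 8 of 8, beside 8999 of 17469 genes tested. Their median log2 ratio was 2.01, and 6 of the 8 were at least 2-fold higher, beside 13.4% of all genes tested. However, 5 of these 6 (Upk1b, Upk2, Upk3a, Psca and Krt5) reached 10 reads in the CKO library only and so had to be higher; of the 3 that reached it in the control, 1 was at least 2-fold higher, at a median of 0.89. Their summed level went from 61.8 to 389 scaled reads per kb, below the 637 of Krt19 alone in the CKO library. Psca was highest with 9 and 291 reads at log2 4.29 and most abundant in the CKO library, and Trp63 lowest with 40 and 81 reads at log2 0.42. Upk1a, the most abundant in the control, had 25 and 71 reads. With so few control reads the list rests on the subtracted constant: its median over that of all genes was 1.99 in the main setting and 0.73 with the values as deposited, and Psca went from 4.26 to 2.39. The uroplakin Upk2 had 4 and 15 reads and Upk3a 9 and 80, and the list includes Krt5. Their part in the results for Krt7, Krt18 and Krt19 was not tested.

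Collecting duct markers were higher for 10 of 13 tested, beside 8999 of 17469 genes tested. None of the 13 was at least 2-fold higher or lower, beside 13.4% and 5.35% of all genes tested. The median log2 ratio of the list was 0.46. Beside 3870 of 17682 genes, 4 of these markers were at least 2-fold higher with equal totals. Their summed level went from 10815 to 14619 scaled reads per kb, with Aqp2 most abundant at 3356 and 5806. Gata3 was highest with 237 and 633 reads at log2 0.83 and Slc4a1 lowest with 1536 and 1908 reads at log2 -0.27. The median of this list lay next to the log2 ratio of Krt8, 0.45. Thick limb and distal tubule markers had a median of 0.08 over 9 tested. At least 2-fold lower was 1, Pvalb (1055 and 704 reads, log2 -1.17), and none was at least 2-fold higher. This stands beside 5.35% lower and 13.4% higher of all genes tested. Under equal totals 3870 of 17682 genes were at least 2-fold higher and 437 lower, and as deposited 3574 of 20002 and 131. Beside these, 2 thick limb and distal tubule markers were higher and 0 lower under equal totals (Pvalb at -0.75), and as deposited 3 and 0. Their summed level went from 49842 to 60653 scaled reads per kb, with Umod most abundant at 34304 and 47506, and Cldn16 was highest with 259 and 693 reads at log2 0.83. The part of these segments in the keratin results was not tested.

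Podocyte markers, given beside nestin, had a median log2 ratio of 0.18 over 8 tested. Their summed level was 1739 and 2121 scaled reads per kb. None of the 8 passed 2-fold, beside 13.4% higher and 5.35% lower of all genes tested. Podxl was the most abundant at 889 and 941 scaled reads per kb. Cdkn1c was highest with 534 and 1592 reads at log2 0.99, passing 2-fold with equal upper quartiles, equal totals or the values as deposited, and Magi2 lowest with 385 and 468 reads at log2 -0.30. Nestin, at log2 1.14, lay near Cdkn1c and above the other podocyte markers tested. The part of podocytes in the results for Nes, Vim and the other measured genes was not tested.

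Proximal tubule markers were lower for 14 of 15 tested and higher for 1, whereas 8999 of 17469 genes tested were higher. At least 2-fold lower were 5 of the 15, beside 5.35% of all genes tested. The median log2 ratio of these markers was -0.83, which was -0.41 with equal totals. Their summed level went from 266457 to 131185 scaled reads per kb, with Slc27a2 most abundant in the control at 54043 and Miox in the CKO library at 24421. Acsm2, with most control reads, was lowest with 253157 and 106804 reads at log2 -1.83, and Slc5a12 highest with 25259 and 50338 reads at log2 0.41. The others at least 2-fold lower, named after their values were seen, were Slc22a6, Slc27a2, Slc34a1 and Miox. With equal totals 12 of 15 were lower and 2 passed 2-fold, while Slc27a2 (-0.81), Slc34a1 (-0.75) and Miox (-0.63) did not. As deposited 9 of 15 were lower, 2 of them at least 2-fold. Of all genes, 437 of 17682 were at least 2-fold lower with equal totals and 131 of 20002 as deposited. Over the all-gene median, the list median was -0.85 in the main setting, -0.86 under equal totals and -0.81 as deposited. All 15 proximal tubule markers had at least 8527 control reads.

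**Figure D5:**
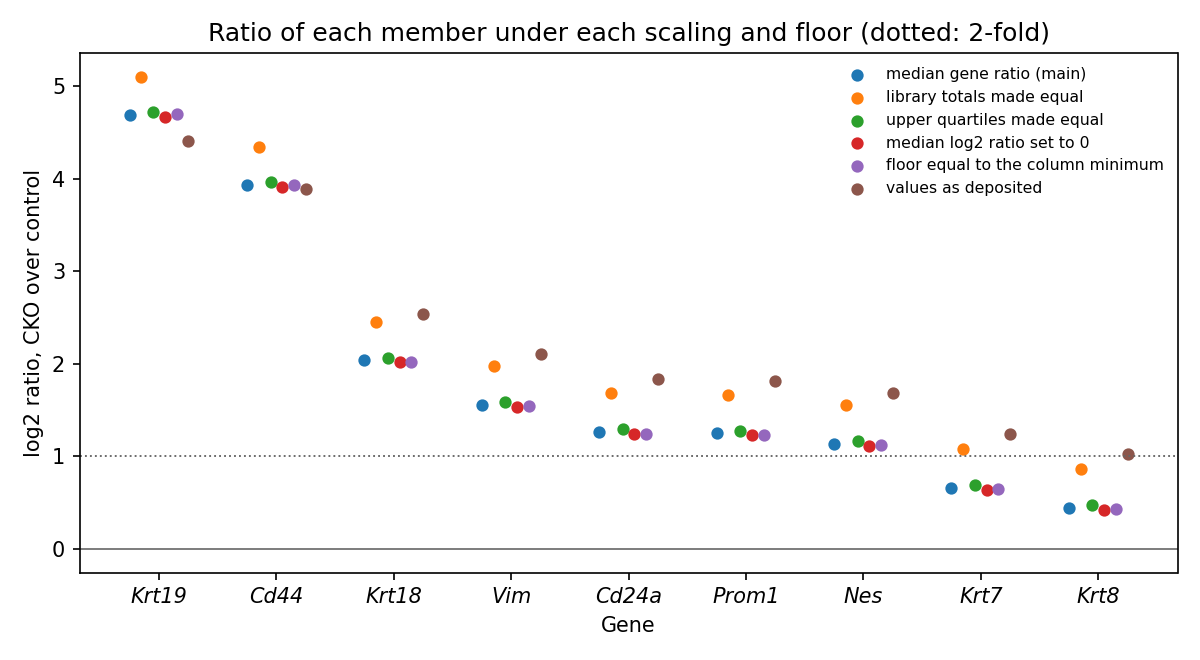
Log2 ratio of CKO over control for each of the 9 genes under 6 choices of scaling and floor, with the 2-fold line dotted. All 9 genes stay above 0 under each of these choices; Krt7 passes 2-fold under equal totals and, like Krt8, under the unprocessed deposited values.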

How the data were processed

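RNA-seq of whole kidney was compared between 1 control and 1 Reg-2 CKO library. STAR 2.7.3a alignment, HTSeq counting and DESeq2 normalization were done by the authors, and the submitters' processing notes name the build mm10; their Cufflinks 2.2.1 values were not used. The deposited values have no standard unit and were handled as a score. They are whole numbers with no gap in the first 500 above lowest values of 35 and 51, so 34 and 50 were subtracted and the rest read as reads per gene, an inference. A factor of 0.667, the median gene ratio of control over CKO, put the CKO reads on the control scale. Ratios are log2 with a pseudocount of 1, for genes reaching 10 scaled reads in either library, with a threshold of 2-fold; folds with 95% Clopper-Pearson intervals have no pseudocount. The interval of a change in the ratio of 2 genes is the conditional exact one, and intervals of sums come from Poisson error propagation. Lengths are those of the longest GENCODE M21 transcript. No per-sample column was left unused (0 columns).

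The members and lists were chosen with earlier results of these data known. Named genes were all members, Zc3h12b, keratins passing the filter, and of each list the highest, the lowest and the one with most control reads; others were named after their values were seen. From the cell type marker lists, 2 genes were left out after the values were seen, 1 of the leukocyte and 1 of the podocyte list, for a reason other than their values; list values are without them. Alternatives were 3 other scalings, a floor equal to the column minimum, the values as deposited, pseudocounts of 0.1 and 10, no filter or 50 reads, thresholds of 1.5-fold and 4-fold, and no division by length. Python 3.11.15, numpy 2.4.6, pandas 2.3.3, scipy 1.17.1 and matplotlib 3.10.9 were used, and the steps were tested on simulated data.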

Additional observations from a re-analysis of the deposited data

How the results depend on the processing

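No paired analysis was possible because the design has 1 library per group. All 9 genes were higher in the CKO library under each alternative. The filters cannot move a single gene's ratio; under the other 7 settings, 49 of 63 values stayed within their counting interval and 0 changed sign. The other 14 moved up, 7 under equal totals and 7 as deposited, with the median of all genes. Relative to that median, all 9 stayed within their intervals under equal totals, and as deposited 7 did, with Krt19 (4.67 to 3.85) and Cd44 (3.91 to 3.33) below theirs. Genes at least 2-fold higher numbered 2334 in the main setting, 3870 with equal library totals, 3574 with the values as deposited, 3801 at 1.5-fold and 749 at 4-fold. Genes at least 2-fold lower numbered 934, against 437 with equal totals, 131 as deposited, 617 with at least 50 scaled reads, 2423 at 1.5-fold and 166 at 4-fold. Higher calls were 71.4% of all calls, against 89.8% with equal totals and 96.5% as deposited. The filament and marker genes counted as higher were 7, then 8 with equal totals or at 1.5-fold, 9 as deposited and 3 at 4-fold. Their median log2 ratio of 1.26 was 1.68 with equal totals and 1.84 as deposited, where the median of all genes was 0.44 and 0.57 in place of 0.02. The type I to type II keratin factor of 4.05 was 3.66 as deposited; protein-coding lengths, chosen after the data were seen, are equal to the longest for these 4 keratins and so test nothing. Thresholds, filters and the factor for equal totals move these values by construction; the values as deposited change floor and factor together. With 38 and 56 control reads, counting error limits the ratios of Krt19 and Cd44 most among the 9 genes. The reading of the values as reads plus a constant is itself an inference.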

Other observations

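Genes on either side of the measured filament and marker genes were looked at after the data were seen. Within 100 kb of 8 of the 9 genes lay 27 other tested genes (RefSeq positions, GRCm38.p6); Krt19 had none. Their median log2 ratio was 0.02, equal to that of all genes tested. Of the 27, 1 passed 2-fold upward and 0 downward, beside 13.4% and 5.35% of all genes tested. That gene was Crabp2, a retinoic acid binding protein 17721 bases from Nes, with 2 control reads and 16 CKO reads, a ratio of 5.33 (95% interval 1.25 to 47.8). It reached 10 reads in the CKO library only and so had to be higher; of the 26 that reached it in the control, 0 were at least 2-fold higher, at a median of -0.01. With the values as deposited Crabp2 was at log2 0.86, under 2-fold, while Slc1a2 (1.19) and Cd38 (1.14) were past it, where the median of all genes was 0.57. Krt8 and Krt18 lie 23874 bases apart on chromosome 15. Beyond them lie Eif4b, a translation initiation factor with 11559 and 16160 reads (log2 ratio -0.10), Tns2, a focal adhesion protein (0.04), and Spryd3 (0.07), all close to the median gene, beside 0.45 for Krt8 and 2.04 for Krt18. The keratin gene Krt80, 42241 bases from Krt7, had a log2 ratio of 0.45 and Krt7 itself 0.66. The glutamate transporter gene Slc1a2, the 1 neighbour of Cd44, had 308 and 734 reads, a log2 ratio of 0.67, against 3.93 for Cd44.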
